A study of Mus musculus with 6 samples.

Results

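The genes described here are the cadherins and protocadherins, taken as every row of the count table whose symbol begins with Pcdh or with Cdh and a number. There were 94 such rows among 23282. The assay was QuantSeq, which sequences about 1 tag per transcript, close to its 3′ end. The tissue was hippocampus from C57BL/6 mice, 16 weeks old. The mice were labelled PHF2 t/g (3 libraries) or WT, wild type (3 libraries), and the 2 genotypes were compared. PHF2 removes methyl groups from lysine 9 of histone H3. The sources used here do not say what "t/g" stands for, nor do they give a construct or promoter. They also do not say whether each library came from its own animal, so the p-values rest on the spread among 3 libraries a group, which may be technical.

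Cadherins are membrane proteins whose extracellular domains bind calcium and then the same domains on a neighbouring cell. Classical cadherins hold synapses and other junctions together through catenins, which link them to actin. Delta protocadherins have more extracellular repeats than classical cadherins, and conserved cytoplasmic motifs in place of catenin binding sites. The clustered protocadherins lie in 3 neighbouring arrays, alpha, beta and gamma, from which each neuron expresses its own combination of isoforms, so that branches of 1 neuron can recognise each other.

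The libraries held 6053363 to 8612720 counts in PHF2 t/g versus 5512171 to 8844718 counts in WT. Members took 0.202% to 0.204% of counts in PHF2 t/g, against 0.194% to 0.206% in WT. WT replicate 2 lay apart from the other libraries along axis 1 of a multidimensional scaling, at 1.08 against −0.532 to 0.152. PHF2 t/g replicate 1 held 292 CPM (counts scaled to library size, with TMM factors) of the choroid plexus transcript Ttr, against 1.28 to 4.46 CPM in the other 5. Phf2 itself averaged 38.6 ± 3.96 CPM in PHF2 t/g versus 37.7 ± 1.92 CPM in WT (SD, n = 3 each; edgeR adjusted p = 0.929), a value that cannot check the labels without the construct's 3′ end. All 9 hippocampal markers listed were tested, with a summed level of 1379 to 1531 CPM in PHF2 t/g, against 1402 to 1697 CPM in WT, most of it from Slc17a7. Of the 9, Wfs1 rose (50.2 ± 3.19 CPM in PHF2 t/g versus 35.8 ± 1.38 CPM in WT; edgeR adjusted p = 0.0191) and 8 did not pass.

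By symbol, 93 of the 94 members matched the RefSeq annotation of GRCm38. They comprised 5 type I and 13 type II classical cadherins, 5 atypical cadherins, 4 delta-1, 5 delta-2 and 3 other non-clustered protocadherins, and 15 alpha, 22 beta and 22 gamma rows. The low-count filter left 42 members for testing, and 4 of the other 52 were at 0 counts in all 6 libraries (Cdh16, Cdh17, Pcdha1 and Pcdhgb1). A count of 0 allows a level of up to 0.332 to 0.57 CPM, depending on the library, and Cdh16 and Cdh17 are known from kidney and intestine. In tag counts over the 6 libraries the delta-1 protocadherins held 34.4% of the members' total, delta-2 15.8%, gamma 15.6%, type I 13.9%, type II 7.03%, alpha 6.57%, beta 3.38%, the other non-clustered genes 2.22% and the atypical cadherins 1.15%. Because QuantSeq gives about 1 tag per transcript, these levels were not divided by transcript length.

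Promoters of 22 members stood in the RefSeq table used here, as 250 bases before and 50 after a transcript start (GRCm38.p6). The 3 printed belong to members whose values are described further on: Pcdh10, whose groups did not overlap; Pcdh8, which neuronal activity induces; and Cdh10, in which 1 library stood apart. Capitals mark the cyclic AMP response element half-site TGACGT or its reverse complement ACGTCA.
Pcdh10 (chr3:45378148-45378447, plus strand): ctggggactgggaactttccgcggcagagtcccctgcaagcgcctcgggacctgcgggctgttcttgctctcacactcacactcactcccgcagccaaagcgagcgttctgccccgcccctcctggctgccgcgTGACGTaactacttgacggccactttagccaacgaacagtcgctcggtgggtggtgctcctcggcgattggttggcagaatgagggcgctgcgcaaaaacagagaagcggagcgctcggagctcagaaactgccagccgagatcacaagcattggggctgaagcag
Pcdh8 (chr14:79771263-79771562, minus strand): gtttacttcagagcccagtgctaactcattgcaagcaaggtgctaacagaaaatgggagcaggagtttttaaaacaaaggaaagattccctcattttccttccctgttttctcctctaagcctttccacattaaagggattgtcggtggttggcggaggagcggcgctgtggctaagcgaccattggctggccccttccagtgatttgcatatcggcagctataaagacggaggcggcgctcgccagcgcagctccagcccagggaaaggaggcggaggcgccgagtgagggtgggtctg
Cdh10 (chr15:18820079-18820378, plus strand): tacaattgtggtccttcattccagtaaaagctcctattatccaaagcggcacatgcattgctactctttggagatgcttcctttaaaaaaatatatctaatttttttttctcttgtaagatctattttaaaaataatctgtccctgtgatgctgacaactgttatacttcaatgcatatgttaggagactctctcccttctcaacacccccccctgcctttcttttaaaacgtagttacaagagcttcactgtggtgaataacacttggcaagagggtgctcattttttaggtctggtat
The half-site, searched on both strands, was found in Pcdh10 and in no other of the 25 promoters of these 22 members, 4% of them against 7.51% of the 32851 promoters in the table. The window of Pcdh10 held 24 CG pairs and that of Pcdh8 held 14, whereas that of Cdh10 held 2, the fewest among the members. This Cdh10 window lies inside the annotated gene, which starts at 18818869, and so belongs to a transcript start further downstream. The median was 14 CG pairs over the members' promoters, and 7 over the whole table. A match is a description of the letters and does not show that a factor binds.

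Of the 42 tested members, 1 rose and 1 fell in PHF2 t/g, and 40 did not pass edgeR's quasi-likelihood test at an adjusted p of 0.05. The background was 2.27% of 12831 tested genes called, 0.779% higher and 1.49% lower. An unadjusted p under 0.05 was found for 6 of the 42 members, against 14.7% of all tested genes. By DESeq2 and by limma-voom Cdh1 was the only member called. The groups did not overlap in 7 of the 42, against 20.6% of all tested genes; PHF2 t/g was higher in 2 of them (background 10.1%) and lower in 5 (background 10.4%). The members' shares with an unadjusted p under 0.05, and without overlap in either direction, were near the background. The share called was above the background and the share higher without overlap was below it, each resting on 2 members. The median log2 fold change was −0.08 over the tested members and 0.02 over all tested genes.

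**Figure D1:**
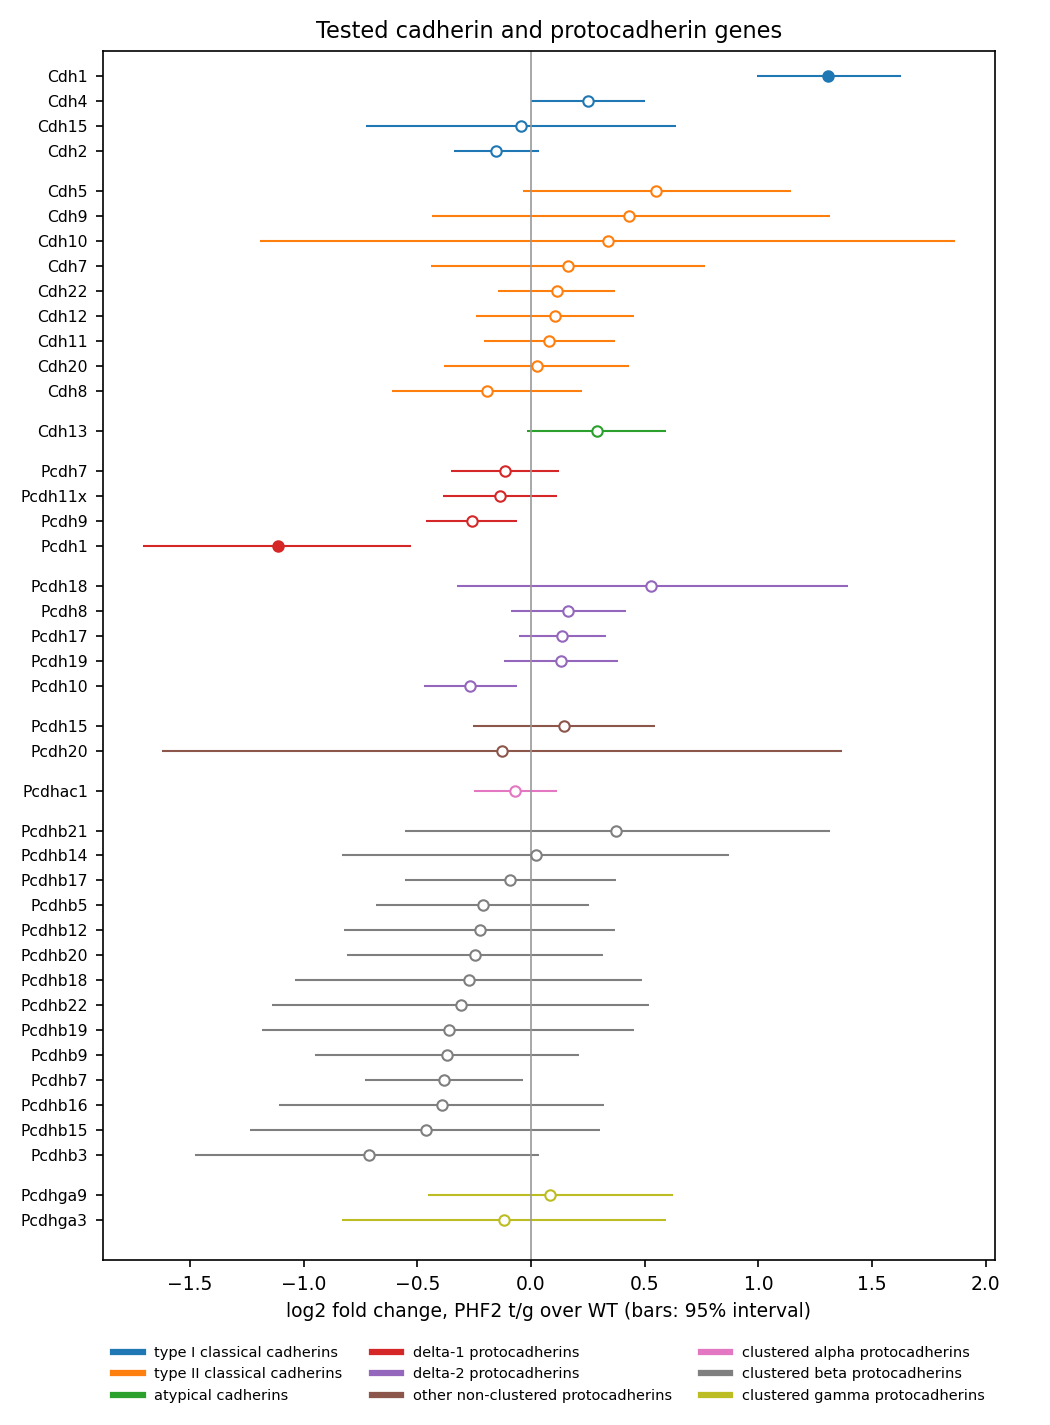
Log2 fold change (PHF2 t/g over WT) of the 42 tested members, grouped and coloured by class, with the 95% interval as a bar; filled points passed the test and open points did not. Cdh1 at 1.31 and Pcdh1 at −1.11 are the 2 filled points, and the intervals of most others include 0.

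E-cadherin, encoded by Cdh1 (chromosome 8, 106603350 to 106670247) and best known from adherens junctions of epithelia, was the member that rose. Its level was 22.2, 21.5 and 20.4 CPM in PHF2 t/g, against 8.36, 9.26 and 8.15 CPM in WT. Every PHF2 t/g library lay above every WT library, and the libraries within each group differed little. Cdh1 averaged 21.4 ± 0.898 CPM in PHF2 t/g, against 8.59 ± 0.59 CPM in WT (SD, n = 3 each), a 2.48-fold rise (log2 fold change 1.31, SE 0.151, 95% interval 0.99 to 1.63; edgeR adjusted p = 5.62e-05). In bulk tissue, fewer cells of a type and less RNA per cell cannot be told apart, here and for every gene named.

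The call of Cdh1 held without each library in turn (log2 fold change 1.26 to 1.37, edgeR adjusted p up to 0.00397), and also without both PHF2 t/g replicate 1 and WT replicate 2 (1.34). Markers of tissues and cells outside hippocampal neurons, over all lists made for them other than the endothelial one, had these levels. The 10 leptomeningeal and fibroblast markers summed to 158 to 174 CPM in PHF2 t/g versus 77.2 to 107 CPM in WT, with 1 of 7 tested members higher (Mgp) and 6 not passing. Mgp alone was at 119, 105 and 110 CPM in PHF2 t/g, against 52.6, 37.5 and 40.3 CPM in WT, and made most of the gap between these sums. Of the 7 log2 fold changes, 6 were above 0 and 1 was below (Dcn). The 6 choroid plexus markers summed to 158 to 557 CPM in PHF2 t/g, against 140 to 156 CPM in WT. Of 4 tested members 0 passed, and all 4 log2 fold changes were above 0. Outside PHF2 t/g replicate 1, Enpp2 gave most of this sum, at 237, 149 and 145 CPM in PHF2 t/g and 131, 146 and 139 CPM in WT. Clic6 did not overlap, at 15.8, 5.67 and 8.67 CPM in PHF2 t/g versus 2.09, 3.64 and 2.87 CPM in WT (edgeR adjusted p = 0.0615). The 7 hypothalamus markers summed to 51.4 to 53.5 CPM in PHF2 t/g versus 4.75 to 5.39 CPM in WT, with 3 of 4 tested members higher. The 3 were Avp (mean 27.2 CPM in PHF2 t/g, 0.283 CPM in WT), Oxt (16 and 0.129 CPM) and Trh (6.41 and 1.54 CPM). Pomc, the other tested member, had a log2 fold change below 0 and did not pass. The 8 striatum markers summed to 777 to 896 CPM in PHF2 t/g, against 593 to 691 CPM in WT, with 3 of 7 tested members higher. Of these 7 log2 fold changes, 6 were above 0 and 1 was below (Adora2a, which did not pass). The 6 thalamus and habenula markers summed to 156 to 174 CPM in PHF2 t/g, against 171 to 198 CPM in WT, with 0 of 5 tested members passing. The 7 oligodendrocyte markers summed to 2303 to 2336 CPM in PHF2 t/g, against 2061 to 2336 CPM in WT, with 2 of 7 lower (Opalin and Mag). The other 5 did not pass and had log2 fold changes above 0. Among them, Mbp and Mog were higher in every PHF2 t/g library than in every WT library. No marker in these 6 lists was at 0 in all 6 libraries, and their part in the level of Cdh1 was not tested.

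P-cadherin, Cdh3 (chromosome 8, 106510852 to 106556911), is the neighbour of Cdh1 and an epithelial cadherin too. It had 7, 5 and 8 counts in PHF2 t/g versus 3, 10 and 7 counts in WT, below the low-count filter. Zfp90 (log2 fold change 0.15) and Tango6 (−0.09) were the 2 genes tested within 200 kb of Cdh1, and neither passed (edgeR adjusted p = 0.709 and 0.856).

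**Figure D2:**
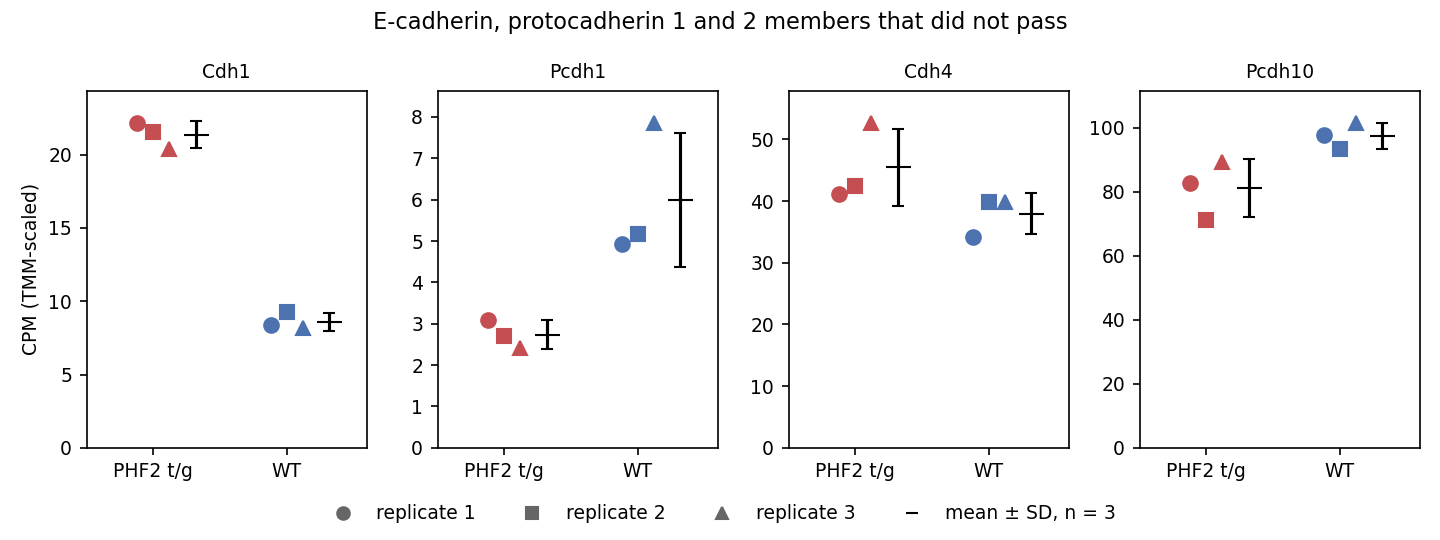
CPM of Cdh1, Pcdh1, Cdh4 and Pcdh10 in each library, PHF2 t/g on the left and WT on the right of each panel; symbols give the replicate number, and black marks the mean ± SD of 3 libraries. The groups do not overlap in any of the 4 panels; Cdh1 and Pcdh1 passed the test, and Cdh4 and Pcdh10 did not.

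N-cadherin, Cdh2, the classical cadherin of excitatory synapses in hippocampus, was the type I cadherin with most tags. It stood at 190, 208 and 228 CPM in PHF2 t/g, against 246, 208 and 242 CPM in WT, with overlapping groups (log2 fold change −0.15, 95% interval −0.34 to 0.03; edgeR adjusted p = 0.452). R-cadherin, Cdh4, was at 41.2, 42.5 and 52.7 CPM in PHF2 t/g versus 34.2, 39.9 and 39.9 CPM in WT. Its groups did not overlap, with all 3 PHF2 t/g libraries higher, but it did not pass (log2 fold change 0.25, SE 0.12; edgeR adjusted p = 0.34). M-cadherin, Cdh15, known from muscle, averaged 3.65 CPM in both groups. The type I cadherins together summed to 280 ± 24 CPM in PHF2 t/g, against 283 ± 18.5 CPM in WT.

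Of the 13 type II cadherins, 9 were tested, none passed and none had an unadjusted p under 0.05. Their median log2 fold change was 0.11, with 8 above 0 and 1 below, where 46.1% of all tested genes were below 0. The 8 were also above 0 under the other scalings (DESeq2's size factors, and library size without a factor). With libraries left out, however, Cdh7, Cdh10, Cdh11, Cdh12 and Cdh20 each turned below 0 in at least 1 setting. Cdh10 was the most counted and the most uneven of them. It was measured at 45.1, 56.4 and 52.5 CPM in PHF2 t/g versus 52.2, 14.5 and 57.1 CPM in WT. WT replicate 2 alone was low, and its log2 fold change was 0.34 with this library and −0.10 without it (edgeR adjusted p = 0.846 and 0.753). The next were Cdh22 (pituitary and brain cadherin) at 30.6 ± 3.64 CPM in PHF2 t/g, against 28.3 ± 1.24 CPM in WT, and Cdh11, known from bone and mesenchyme, at 24.8 ± 2.47 CPM in PHF2 t/g, against 23.4 ± 3.14 CPM in WT. Cdh12 (brain cadherin) averaged 14.6 ± 2.61 CPM in PHF2 t/g versus 13.6 ± 1.05 CPM in WT. Cdh20 and Cdh7 averaged 8.19 ± 0.876 and 3.9 ± 0.93 CPM in PHF2 t/g, against 8.16 ± 0.77 and 3.46 ± 0.388 CPM in WT. Cdh8, the member below 0, averaged 7.63 ± 1.35 CPM in PHF2 t/g versus 8.86 ± 0.715 CPM in WT. Cdh9, which in mice acts at synapses between dentate granule cells and CA3 neurons, was low, at 1.59 ± 0.166 CPM in PHF2 t/g, against 1.22 ± 0.291 CPM in WT.

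VE-cadherin, Cdh5, joins endothelial cells and had the smallest p of the type II cadherins. It stood at 5.87, 3.54 and 5.46 CPM in PHF2 t/g versus 2.85, 3.87 and 3.32 CPM in WT, and the groups overlapped (log2 fold change 0.55, 95% interval −0.04 to 1.14; edgeR adjusted p = 0.373). The 10 endothelial markers summed to 267 to 277 CPM in PHF2 t/g, against 255 to 270 CPM in WT, with 2 of 9 tested members higher (Flt1 and Ly6c1), 7 not passing and none at 0 in all 6 libraries. Of the 9, 4 log2 fold changes were above 0 and 5 below (median −0.02). Among the 7 that did not pass, the groups were without overlap in Pecam1, Kdr and Cldn5. Pecam1 averaged 25.2 ± 1.74 CPM in PHF2 t/g versus 18.2 ± 0.115 CPM in WT (edgeR adjusted p = 0.0672). Kdr averaged 6.47 ± 0.883 CPM in PHF2 t/g versus 5.08 ± 0.121 CPM in WT (edgeR adjusted p = 0.495). Cldn5, of endothelial tight junctions, was lower, at 11.7 ± 0.924 CPM in PHF2 t/g versus 17.9 ± 3.86 CPM in WT (edgeR adjusted p = 0.0791). The part of these markers in the level of Cdh5 was not tested. Pcdh12, a second endothelial member, had 1 count in all PHF2 t/g libraries together and 4 in WT. Among the atypical cadherins, T-cadherin (Cdh13), which is held in the membrane by a lipid anchor, was the 1 tested. It was at 24.7, 20.3 and 29.7 CPM in PHF2 t/g versus 21.7, 19.6 and 19.9 CPM in WT, and did not pass (log2 fold change 0.29; edgeR adjusted p = 0.372). Cdh23, which forms the tip links of hair cells with Pcdh15, had 6 counts over PHF2 t/g and 4 over WT.

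All 4 delta-1 protocadherins had a log2 fold change below 0, whichever of the 3 scalings was used, against 46.1% of all tested genes below 0 with TMM. By the test, 1 of the 4 fell. That was Pcdh1 (chromosome 18, 38185914 to 38212048), at 3.1, 2.69 and 2.41 CPM in PHF2 t/g, against 4.94, 5.16 and 7.85 CPM in WT. All 3 PHF2 t/g libraries were below all WT libraries, and WT replicate 3 was the highest. It fell 2.16-fold (log2 fold change −1.11, SE 0.281, 95% interval −1.71 to −0.53; edgeR adjusted p = 0.0442). These levels rest on 28, 19 and 15 counts in PHF2 t/g versus 26, 44 and 52 counts in WT.

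The call of Pcdh1 lay close to the threshold and ended under several settings, with an adjusted p of 0.185, 0.164 and 0.152 without PHF2 t/g replicate 1, 2 and 3, 0.166 without WT replicate 3, 0.0911 by limma-voom, 0.071 with library size alone, 0.0735 when the fit was not robust, 0.0518 with the replicate block and 0.0794 without both PHF2 t/g replicate 1 and WT replicate 2. Over all alternatives its adjusted p ranged from 0.00803, without the low-count filter, to 0.185. Gm52328 overlaps it in the RefSeq annotation, and whether the authors' counting used strand is not given. Of the 4 genes tested within 200 kb of Pcdh1, none passed (log2 fold change −0.19 to 0.12).

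Pcdh9, the delta-1 gene with the most tags of any member, was measured at 540, 568 and 495 CPM in PHF2 t/g, against 556, 734 and 627 CPM in WT. WT replicate 2 was the highest, and the groups overlapped between PHF2 t/g replicate 2 and WT replicate 1. The log2 fold change was −0.26 (SE 0.0947, 95% interval −0.46 to −0.06; unadjusted p = 0.0139, edgeR adjusted p = 0.185), and it passed only without the low-count filter (adjusted p = 0.0449) among the settings tried. Without WT replicate 2 the log2 fold change was −0.15 (adjusted p = 0.374), and without WT replicate 1 it was −0.36 (0.0541), in an adjusted p range of 0.0449 to 0.494 over the alternatives. Pcdh7, whose cytoplasmic part binds protein phosphatase 1, averaged 62.1 ± 10.6 CPM in PHF2 t/g versus 67 ± 3.4 CPM in WT, and the X-linked Pcdh11x 26.4 ± 1.26 CPM in PHF2 t/g, against 29.2 ± 2.26 CPM in WT. Neither passed, Pcdh7 with a log2 fold change of −0.11 (95% interval −0.35 to 0.12, edgeR adjusted p = 0.696). Pcdh11x was at −0.14 (95% interval −0.39 to 0.11, edgeR adjusted p = 0.646). The delta-1 genes summed to 627, 653 and 597 CPM in PHF2 t/g versus 653, 835 and 737 CPM in WT, 0.843 times the WT mean.

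All 5 delta-2 protocadherins were tested and none passed, with an unadjusted p under 0.05 in 1. This was Pcdh10, which binds the actin-regulating WAVE complex through Nckap1. It stood at 82.7, 71.3 and 89.3 CPM in PHF2 t/g, against 97.8, 93.3 and 101 CPM in WT, without overlap (log2 fold change −0.27, SE 0.0967, 95% interval −0.47 to −0.06; unadjusted p = 0.0127, edgeR adjusted p = 0.178). The other 4 had log2 fold changes above 0. Pcdh17, known from presynaptic sites, averaged 120 ± 5.6 CPM in PHF2 t/g versus 109 ± 11.4 CPM in WT. Pcdh19, the gene of an X-linked epilepsy in humans, averaged 86.6 ± 9.7 CPM in PHF2 t/g, against 79.5 ± 12.2 CPM in WT. Pcdh8, or arcadlin, which activity induces in hippocampal neurons, was at 28.6, 30.9 and 27.9 CPM in PHF2 t/g versus 28.5, 24.9 and 24.9 CPM in WT (log2 fold change 0.16, 95% interval −0.09 to 0.42; edgeR adjusted p = 0.572). Pcdh18, at 2.2 ± 0.811 CPM in PHF2 t/g, against 1.59 ± 0.464 CPM in WT, was the lowest of them. The delta-2 genes summed to 319 ± 3.69 CPM in PHF2 t/g versus 313 ± 10.7 CPM in WT.

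Pcdh20 varied more between libraries of a group than between groups. It was measured at 36.6, 45.9 and 16.7 CPM in PHF2 t/g, against 41.4, 48.5 and 18.7 CPM in WT, so replicate 3 was low in both groups (log2 fold change −0.13, 95% interval −1.62 to 1.37; edgeR adjusted p = 0.945). Of the 9 hippocampal markers, 6 were also lowest in replicate 3 of both groups (C1ql2, Spink8, Fibcd1, Prox1, Neurod6 and Zbtb20), and 3 were not (Wfs1, Grik4 and Slc17a7). C1ql2 of dentate granule cells was at 5.98, 9.78 and 1.28 CPM in PHF2 t/g versus 5.32, 6.57 and 1.36 CPM in WT, and Spink8 of CA1 at 13.5, 16.6 and 6.1 CPM in PHF2 t/g, against 11.6, 12.4 and 2.72 CPM in WT. Their part in the level of Pcdh20 was not tested. Pcdh15, the tip-link partner of Cdh23, averaged 9.33 ± 1.27 CPM in PHF2 t/g versus 8.55 ± 0.915 CPM in WT and did not pass.

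**Figure D3:**
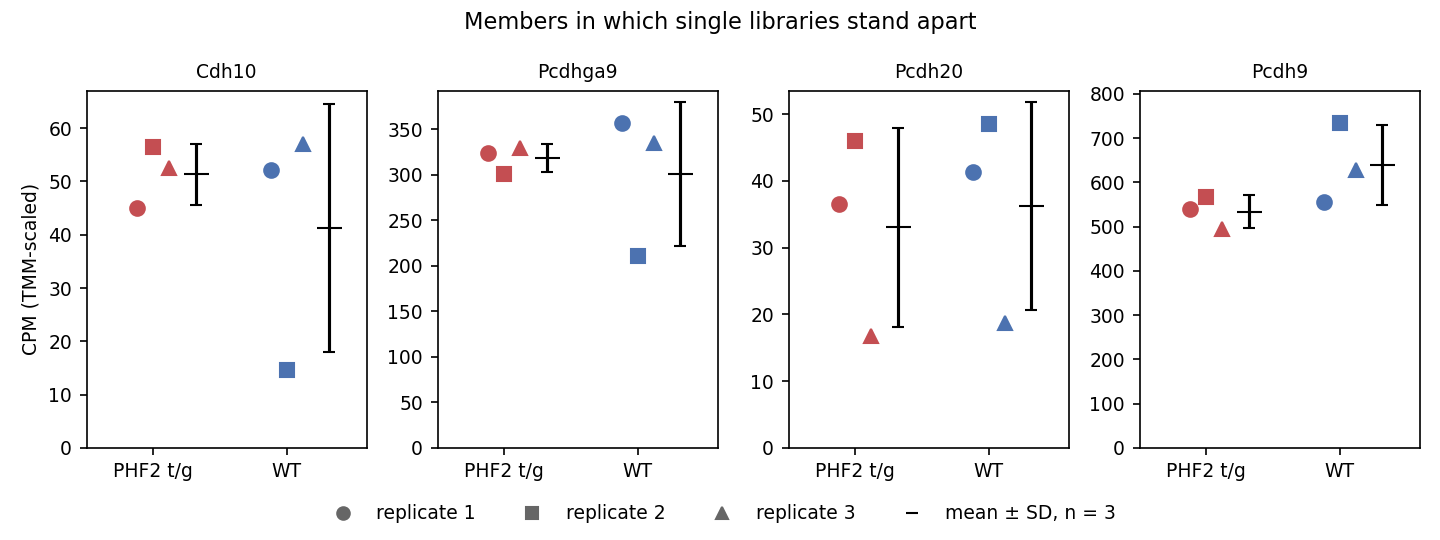
CPM of Cdh10, Pcdhga9, Pcdh20 and Pcdh9 in each library, PHF2 t/g left of WT, with symbols for the replicate number and the mean ± SD of 3 libraries in black. WT replicate 2 is low for Cdh10 (14.5 CPM) and Pcdhga9 (210 CPM) and high for Pcdh9 (734 CPM), and replicate 3 of both groups is low for Pcdh20.

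The alpha and gamma genes of the clustered locus each have their own first exon, spliced to constant exons that all genes of the array share, while each beta gene has its own end. Of the 93 members with a position, 61 lie on chromosome 18, most of them in these arrays. In the RefSeq annotation 13 of 14 alpha genes with a position end within 10 bases of Pcdhac1 (chromosome 18, 37187657), and 21 of 22 gamma genes within 10 bases of Pcdhga9 (37841863). The 22 beta genes (37264998 to 37521419) do not overlap each other. In the deposited counts 1 row held nearly all tags of an array with a shared end. Pcdhac1 took 98.6% to 99.8% of alpha tags in PHF2 t/g, against 98.9% to 99.3% in WT. Pcdhga9 took 97.5% to 98% of gamma tags in PHF2 t/g versus 95.5% to 98% in WT. Within the beta array the row with most tags, Pcdhb7, took 16.8% to 22.8% in PHF2 t/g, against 18.9% to 23.5% in WT. The tags of the shared ends cannot be assigned to an isoform, so Pcdhac1 and Pcdhga9 are read here as the alpha and gamma arrays and not as those 2 isoforms.

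**Figure D4:**
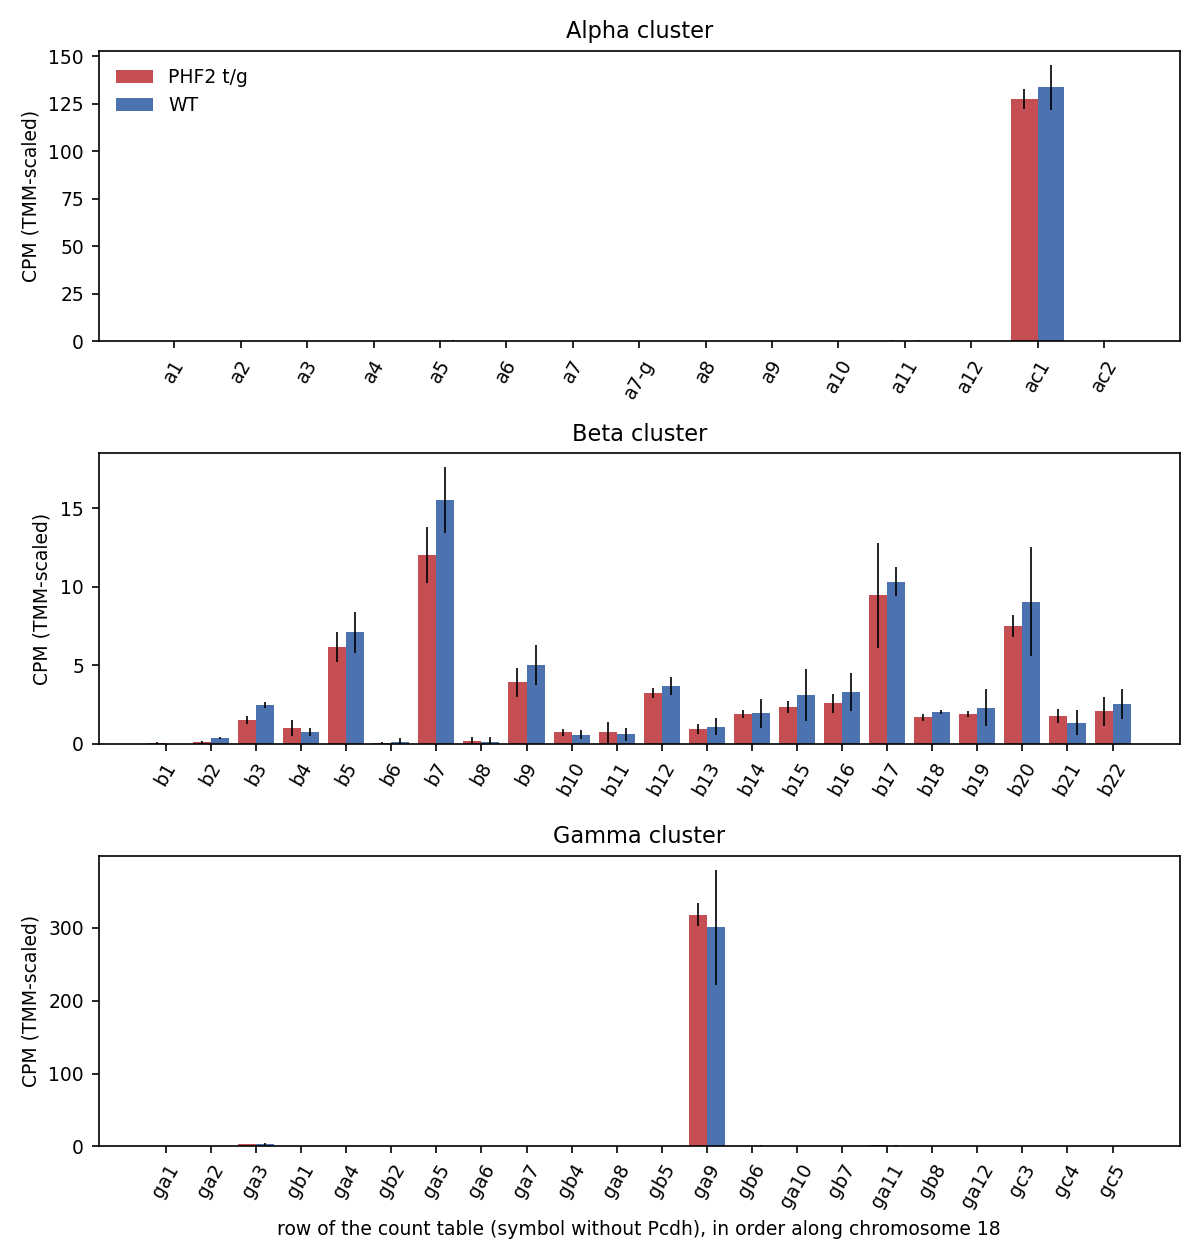
Mean CPM (bars, from 0) and SD (lines, n = 3) of every alpha, beta and gamma row, in order along chromosome 18, with PHF2 t/g left of WT; each panel has its own scale. Alpha tags stand almost entirely on Pcdhac1 and gamma tags on Pcdhga9, whereas beta tags are spread over many rows.

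The alpha array, read through Pcdhac1, was at 126, 123 and 133 CPM in PHF2 t/g versus 122, 132 and 146 CPM in WT. The groups overlapped, and the interval of the log2 fold change was narrow (−0.07, SE 0.0865, 95% interval −0.25 to 0.11; edgeR adjusted p = 0.768). With library size alone the value was 0.03. The other 14 alpha rows held 2 to 12 counts together in a PHF2 t/g library and 6 to 13 in a WT library. Pcdha11 had 7 counts over PHF2 t/g and 10 over WT, and Pcdha12 had 4 counts over PHF2 t/g and 0 over WT. Pcdha7 and Pcdha7-g had the same counts in every library, 0 over PHF2 t/g and 2 over WT.

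The gamma array, read through Pcdhga9, was at 324, 301 and 330 CPM in PHF2 t/g, against 357, 210 and 336 CPM in WT. WT replicate 2 was low, as it was for Cdh10. The log2 fold change was 0.08 with this library (95% interval −0.45 to 0.62; edgeR adjusted p = 0.905) and −0.12 without it (adjusted p = 0.484). Pcdhga3 was the other gamma row tested, at 3.19 ± 0.386 CPM in PHF2 t/g versus 3.31 ± 1.62 CPM in WT (edgeR adjusted p = 0.913). Pcdhgb6 had 4 counts over PHF2 t/g and 18 over WT, 13 of them in WT replicate 2. Pcdhgc3, Pcdhgc4 and Pcdhgc5 had 4, 5 and 1 counts over PHF2 t/g and 2, 4 and 1 over WT.

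The beta genes could be read singly, although they are close paralogs and the authors' treatment of tags that match several is not given. Of 22 rows 14 were tested, none passed and 1 had an unadjusted p under 0.05; 12 of the 14 log2 fold changes were below 0 under TMM and under DESeq2 size factors, and 11 with library size alone, against 46.1% of all tested genes below 0 with TMM. Their median was −0.29 under TMM, where that of all tested genes was 0.02, and −0.19 with library size alone, where that of all tested genes was 0.12. Pcdhb7 stood at 10.6, 14 and 11.4 CPM in PHF2 t/g, against 14.4, 17.9 and 14.2 CPM in WT, without overlap (log2 fold change −0.38, SE 0.166, 95% interval −0.73 to −0.03; unadjusted p = 0.033, edgeR adjusted p = 0.279). Pcdhb3 was also without overlap, at 1.22, 1.7 and 1.61 CPM in PHF2 t/g versus 2.66, 2.46 and 2.27 CPM in WT (log2 fold change −0.71, 95% interval −1.48 to 0.03; edgeR adjusted p = 0.365). Pcdhb18 was the third such beta row, at 1.44 to 1.84 CPM in PHF2 t/g, against 1.88 to 2.11 CPM in WT (edgeR adjusted p = 0.783). These were 3 of 14 tested beta rows. Of all tested genes, 20.6% were without overlap in either direction and 10.4% in the lower direction.

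Other beta rows with many tags overlapped between the groups. Pcdhb17 averaged 9.46 ± 3.33 CPM in PHF2 t/g versus 10.3 ± 0.916 CPM in WT, with PHF2 t/g replicate 1 the highest of all at 13.3 CPM. Pcdhb20 averaged 7.51 ± 0.728 CPM in PHF2 t/g, against 9.07 ± 3.47 CPM in WT, with WT replicate 2 the lowest at 5.16 CPM. Pcdhb5 averaged 6.19 ± 0.949 CPM in PHF2 t/g versus 7.09 ± 1.28 CPM in WT. The next 6 by level (Pcdhb9, Pcdhb12, Pcdhb16, Pcdhb15, Pcdhb22 and Pcdhb19) had log2 fold changes of −0.46 to −0.22 and adjusted p-values of 0.582 to 0.772. Pcdhb21 (log2 fold change 0.37) and Pcdhb14 (0.02) were the 2 tested rows above 0.

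The summed beta level, over all 22 rows and so free of the low-count filter, was 63.2, 61.7 and 60.9 CPM in PHF2 t/g, against 69, 76.5 and 75.1 CPM in WT. The PHF2 t/g mean was 0.842 times the WT mean with TMM and 0.903 times with library size alone, where the groups overlapped (62.6 to 66.2 CPM in PHF2 t/g versus 65.9 to 73.7 CPM in WT). Sums of the other classes overlapped with TMM, except delta-1, where PHF2 t/g replicate 2 (652.5 CPM) lay just below WT replicate 1 (652.9 CPM). With library size alone the delta-1 sums overlapped, and those of type II cadherins (153 to 160 CPM in PHF2 t/g, 104 to 144 CPM in WT) and delta-2 protocadherins (324 to 338 CPM in PHF2 t/g, 293 to 310 CPM in WT) did not. No test was made of sums, since the members were chosen with results of these data known.

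**Figure D5:**
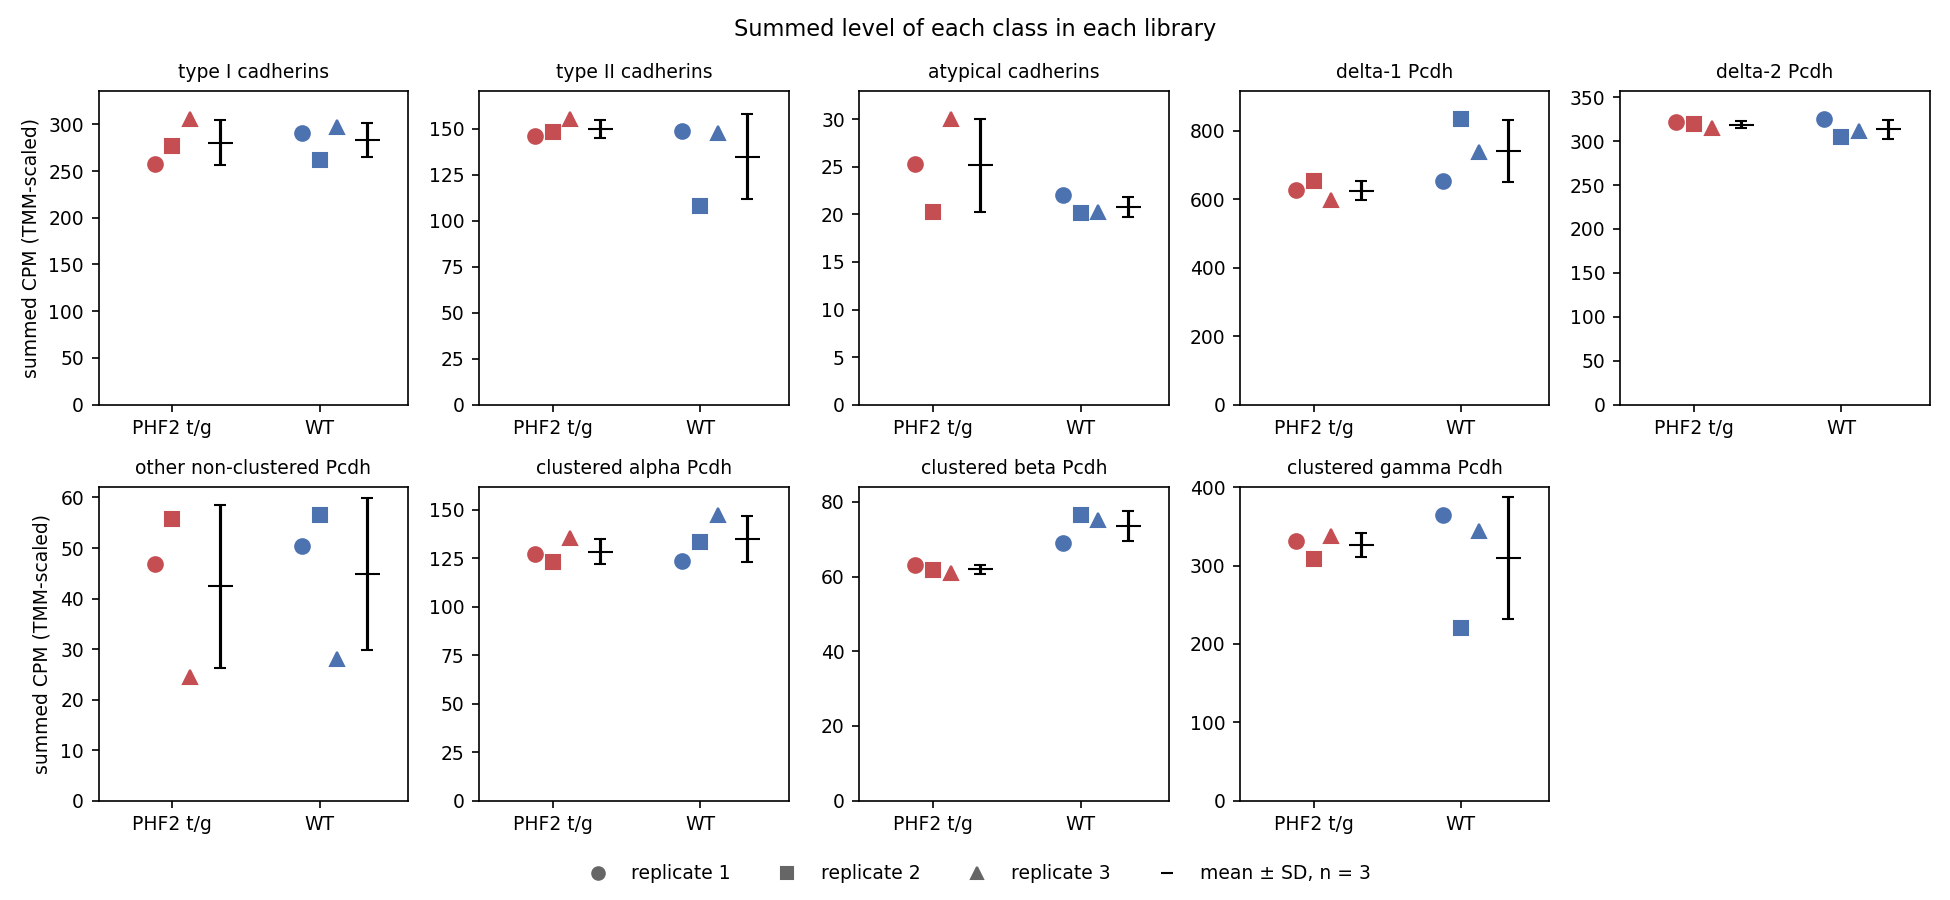
Summed CPM of each of the 9 classes in each library, PHF2 t/g left of WT, with symbols for the replicate number and the mean ± SD of 3 libraries in black. The beta and delta-1 sums are lower in every PHF2 t/g library than in every WT library on this TMM scale, which for both does not hold with library size alone. For delta-1 the separation is marginal, with PHF2 t/g replicate 2 at 652.5 CPM and WT replicate 1 at 652.9 CPM. WT replicate 2 is the low point for gamma and type II.

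Genes that work with these proteins were read from 4 lists. Of their 55 tested genes, 4 had an unadjusted p under 0.05 (Ctnna2, Clstn3, Ctcf and Adam10), 7.27% against 14.7% of all tested genes. Of 16 tested catenins and junction partners none passed (median log2 fold change −0.05), with the smallest p for Ctnna2, the neuronal alpha-catenin, at 117 ± 8.4 CPM in PHF2 t/g, against 136 ± 13 CPM in WT (edgeR adjusted p = 0.229), followed by nectin-3, Pvrl3 (adjusted p = 0.442). Of 12 tested cadherin superfamily genes outside the symbol rule, Clstn3, a calsyntenin that binds neurexins at synapses, fell and 11 did not pass. Clstn3 was at 183, 207 and 213 CPM in PHF2 t/g versus 270, 252 and 248 CPM in WT, without overlap (log2 fold change −0.35, SE 0.0818; edgeR adjusted p = 0.0289). Clstn3 no longer passed when PHF2 t/g replicate 1, 2 or 3 was left out (adjusted p = 0.263, 0.116 and 0.0583), nor without WT replicate 1 (0.0767). The same held for limma-voom (0.0598), a fit that was not robust (0.0593), library size alone (0.107) and the libraries without both PHF2 t/g replicate 1 and WT replicate 2 (0.0923). Its adjusted p over all alternatives was 0.00345 to 0.263. Celsr1, a planar polarity cadherin, was next and did not pass (adjusted p = 0.417). Of 12 tested regulators of the clustered locus none passed. CTCF, whose binding at promoters and an enhancer sets the choice of alpha isoform, had the smallest p, with Ctcf at 150, 156 and 164 CPM in PHF2 t/g, against 174, 220 and 193 CPM in WT (log2 fold change −0.33, SE 0.0892; edgeR adjusted p = 0.0611). All 3 PHF2 t/g libraries were below all WT libraries, and Ctcf passed without the low-count filter (adjusted p = 0.00977) and without WT replicate 1 (0.0237), with a range of 0.00977 to 0.35 over the alternatives. Rad21, a cohesin subunit, followed (adjusted p = 0.431). Of 15 signalling and cleavage partners none passed; Adam10, the protease that sheds N-cadherin and gamma protocadherins, was at 30.5 ± 3.44 CPM in PHF2 t/g versus 22.7 ± 5.11 CPM in WT (edgeR adjusted p = 0.162, and 0.0399 without the low-count filter), and Cyfip2 of the WAVE complex came next (0.435).

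Members below the low-count filter added little more. Cdh19, a cadherin of glia in peripheral nerve, had 7, 0 and 3 counts in PHF2 t/g, against 0, 1 and 1 in WT. Cdh6 had 24 counts over PHF2 t/g and 34 over WT, and Cdh18 had 14 over PHF2 t/g and 27 over WT, 14 of them in WT replicate 2. Pcdhb13 had 21 counts over each group and Pcdhb4 22 over PHF2 t/g and 15 over WT. At counts this low the rows were not tested in the main fit, so differences in them were neither shown nor excluded. Without the low-count filter 90 members were tested, and the 3 called were Cdh1, Pcdh1 and Pcdh9.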

How the data were processed

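The authors deposited unnormalized counts, 1 table of 23282 symbols for each library. Libraries were QuantSeq 3′ libraries from Trizol-extracted RNA, per the labels' protocols. The submitters' processing notes name Bowtie2, edgeR and mm10; the sources used here give no version, counting program, annotation or use of strand. Samples took group and replicate number from their titles. Rows were filtered by filterByExpr, scaled by TMM and tested with edgeR 4.0.16 in R 4.3.3 (quasi-likelihood test, robust fit, a term for genotype alone); p-values were adjusted by Benjamini-Hochberg over 12831 rows. The SE is the size of the log2 fold change over the square root of F. CPM uses TMM-scaled totals. The 95% intervals of fold changes use the spread between libraries; the floor of 3 counts per library covers counting error only. No libraries agreed within sampling noise (chi-square per gene at least 2.95). The procedure was tested on simulated data.

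The members and lists were chosen with earlier results of these data known. Described by rule were members past the threshold, those with the highest levels or smallest p in each class, and those at 0; in the partner lists, those past the threshold or with the smallest p. Other members, the markers named singly and the printed promoters were chosen after their values were seen. Alternatives were DESeq2's size factors, library size alone, DESeq2 1.42.0, limma-voom (limma 3.58.1), other low-count filters, a fit that was not robust, a replicate block, each library left out and an adjusted p of 0.10; leaving out both PHF2 t/g replicate 1 and WT replicate 2 was added after seeing the data.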

Additional observations from a re-analysis of the deposited data

How the results depend on the processing

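The count of all genes called, 291 in the main analysis, was 162 by limma-voom, 606 without the low-count filter, 149 without the robust fit, 547 at an adjusted p of 0.10, 140 without both PHF2 t/g replicate 1 and WT replicate 2, and 49 to 392 with 1 library left out. The split was 100 higher and 191 lower, but 207 and 70 with library size alone, where the median of all genes moved to 0.12. The count of members called, 2, was 1 with library size alone, limma-voom, DESeq2, the fit that was not robust, the replicate block and without both libraries, 1 to 2 with 1 library left out, and 3 without the low-count filter, where Pcdh9 passed. Cdh1 was called in every setting. DESeq2 gave Pcdh1 no adjusted p.

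Same-numbered libraries deviated together with r of −0.00445, 0.123 and 0.0846. PHF2 t/g replicates 2 and 3 each correlated best with the WT library of the same number. PHF2 t/g replicate 1 had r near 0 with every WT library, the highest with WT replicate 2 (0.0139). Whether the numbers pair the samples cannot be told from these values. With the replicate block 299 genes and 1 member were called. The cause of these changes was not tested.

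None of the genes whose sign turned was called in the setting where it turned. With library size alone the log2 fold change of Pcdhac1 was 0.031, of Pcdhb17 0.011 and of Cdh15 0.055, and that of Cdh15 was 0.045 by limma-voom and 0.043 with the replicate block. Without both libraries Pcdhga9 was at −0.14, Pcdhga3 at 0.52, Pcdh19 at −0.060, Pcdh20 at 0.10, Pcdh15 at −0.024, Cdh15 at 0.081, Cdh10 at −0.0071, Cdh12 at −0.018, Cdh20 at −0.15 and Pcdhb14 at −0.42. With 1 library left out, Pcdhb17 ranged from −0.45 to 0.058, Pcdhb20 from −0.57 to 0.0072, Pcdhga9 from −0.12 to 0.22, Pcdhga3 from −0.37 to 0.41, Pcdh20 from −0.45 to 0.18, Cdh15 from −0.34 to 0.23, Cdh10 from −0.10 to 0.67, Cdh11 from −0.031 to 0.16, Cdh7 from −0.047 to 0.30, Cdh20 from −0.078 to 0.078 and Pcdhb14 from −0.33 to 0.44. The sign of Pcdh1 did not turn, with a range of −1.23 to −0.88.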
